A study of Mus musculus with 13 samples.

Results

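The genes described here are 5 members of the 2′-5′-oligoadenylate synthetase (OAS) family, Oas1a, Oas2, Oas3, Oasl1 and Oasl2, in RNA of mouse microglia, the resident macrophages of the brain. They were chosen by gene symbol, as enzymes of the interferon response that sense double-stranded RNA beside the kinase PKR, and they are 5 of the 19737 genes in the deposited expression table. OAS enzymes bind double-stranded RNA and make short 2′-5′-linked oligoadenylates (2-5A), a small signalling molecule of the antiviral response. OAS genes are induced by interferon through the transcription factor complex ISGF3. Oas1a is a catalytically active mouse homologue of human OAS1, Oas2 and Oas3 encode synthetases built from several repeated OAS domains, Oasl1 encodes a protein without synthetase activity that is known to hold back translation of Irf7, and Oasl2 encodes a synthetase-like protein that keeps activity.

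The microglia came from 4 groups of mice, 13 libraries in all. Wild type mice that received an adeno-associated virus of the PHP.eB capsid carrying EGFP gave 3 libraries. Mice of the 5xFAD line, which carries human transgenes with familial Alzheimer's disease mutations driven in neurons and deposits amyloid, gave 2 libraries with the same EGFP vector. A further 4 libraries came from 5xFAD mice given the PHP.eB virus with circPOLR2A, a circular RNA. Their treatment labels end in (9,10), (9,11), (9,12) and (9,13) for replicates 1 to 4, whereas the series design names (9,10) for all of them, so the labels leave the construct of replicates 2 to 4 unclear. The last 4 libraries came from 5xFAD mice with knockout of PKR, the kinase encoded by Eif2ak2, for which the labels name no vector. The study put a circular RNA that forms double strands into neurons, per its title, and examined 5xFAD microglia. Age and sex are not given in the sources used here, nor is it stated whether each library came from 1 mouse or from pooled mice. Where separate animals are not stated, p-values measure the spread between these samples, which may be technical. Only the PKR knockout libraries carry library names in the labels. A difference in how they were made, the lack of a named vector and the knockout therefore cannot be told apart.

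Both OAS loci lie on chromosome 5 of build GRCm38. Oasl2 (chr5:114896936-114912234, plus strand) and Oasl1 (chr5:114923240-114937915, plus strand) sit side by side in 41.0 kb. Oas2 (chr5:120730333-120749853), Oas3 (chr5:120753098-120777661) and Oas1a (chr5:120896256-120907521), all on the minus strand, lie in a cluster of 191.3 kb that holds 10 annotated OAS genes, 8 of which are in the table.

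The interferon-stimulated response element (ISRE) is the sequence ISGF3 binds, and its core GAAANNGAAA was searched on both strands in windows of 250 bases before to 50 after each gene's start (RefSeq, GRCm38.p6). These stretches are shown because the genes below moved by different amounts, and capitals mark every matched base. Overlapping matches are merged.
Oas1a, chr5:120907526-120907575, minus strand: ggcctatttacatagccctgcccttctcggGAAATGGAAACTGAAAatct
Oas1g, chr5:120887614-120887661, minus strand: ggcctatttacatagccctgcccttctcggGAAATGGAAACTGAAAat
Oas3, chr5:120777695-120777764, minus strand: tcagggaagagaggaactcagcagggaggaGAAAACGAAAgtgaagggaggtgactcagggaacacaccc
Oas1c, chr5:120812583-120812658, minus strand: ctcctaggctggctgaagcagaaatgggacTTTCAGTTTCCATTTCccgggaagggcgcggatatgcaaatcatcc
The Oas1a window holds 2 overlapping matches, 20 to 5 bases before the start, and that of its paralog Oas1g holds the same 2 matches, 18 to 3 bases before its start. The Oas3 match lies 75 to 66 bases before the start. Oas1c, another OAS1 paralog, has 2 overlapping matches on the opposite strand, 114 to 99 bases before its start. That run also lies directly before the annotated start of the neighbouring Oas1b (chr5:120812635-120824163, plus strand), on the strand of Oas1b, so it cannot be assigned to Oas1c alone. No match was found in the windows of Oasl1 and Oasl2, and Oas2 has no entry in the sequence table. Of all 32851 windows, 1131 (3.44%) hold the core. A match is a run of letters and not a measured binding site.

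Expression is given as FPKM, fragments scaled to gene length and library size, as deposited. The 8 microglial markers followed were present in every library, for example Csf1r at 448 to 747 FPKM and P2ry12 at 153 to 421 FPKM. Depth, recovered from the steps between low FPKM values, was 57.7 to 70.0 M fragments (M, mega) in the PKR knockout libraries and 45.2 to 54.9 M in the others. Wild type replicate 3 stood apart, with oligodendrocyte markers summing to 1534 FPKM against 332.3 and 374.5 in the other wild type libraries, neuronal markers to 75.3 against 19.2 and 24.5, and microglial markers to 1964 against 3074 and 3138. Without it the members called against wild type by limma among those with a mean of at least 1 FPKM were the same, 2 in 5xFAD with EGFP, 2 with circRNA and 3 with PKR knockout. Eif2ak2 itself had 3.31 to 4.61 FPKM with the knockout, below the 6.49 to 6.59 FPKM of the 5xFAD EGFP libraries and overlapping the 4.14 to 5.23 FPKM of wild type. The sources used here do not say how the knockout alters Eif2ak2, and a value for the whole gene counts any transcript that remains. Differences between groups were tested with limma on log2(FPKM + 1), which understates the change of genes near or below 1 FPKM, and a gene is said to change where its Benjamini-Hochberg adjusted p over all genes tested was under 0.05. Oas1a, Oas2 and Oasl2 had a mean of at least 1 FPKM and were tested among 10817 such genes. Oas2 reached that mean only through the PKR knockout libraries (0.993 FPKM over the other 9 libraries), so its place among the members tested was set by the group in which it is high. Oas3 and Oasl1 did not pass this filter, and their tests come from the fit of 18291 genes with no filter.

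Oas1a was the most abundant member in every group by mean FPKM, a unit that already accounts for gene length. Its level was 1.76, 1.49 and 1.43 FPKM in wild type replicates 1 to 3 and 5.61 and 4.70 FPKM in 5xFAD with EGFP. With circRNA it was 6.0, 6.95, 8.83 and 8.05 FPKM, and with PKR knockout 8.88, 9.81, 6.75 and 7.51 FPKM. Every 5xFAD library lay above every wild type library, the libraries of both treated groups lay above those of 5xFAD EGFP, and circRNA and PKR knockout overlapped. Group means were 1.56 ± 0.17 FPKM (SD, n = 3), 5.15 ± 0.64 (SD, n = 2), 7.46 ± 1.24 (SD, n = 4) and 8.24 ± 1.37 (SD, n = 4) in the same order.

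Oasl2 was next, at 1.31, 1.47 and 1.44 FPKM in wild type and 4.18 and 3.13 FPKM in 5xFAD with EGFP. The circRNA libraries had 4.50, 4.61, 7.01 and 5.48 FPKM and the PKR knockout libraries 5.19, 6.93, 4.42 and 4.97 FPKM. The order of the groups was that of Oas1a except that the means with circRNA, 5.40 ± 1.16 FPKM, and with PKR knockout, 5.38 ± 1.08 FPKM (SD, n = 4 each), were alike. Oas1a exceeded Oasl2 in 12 of 13 libraries, all 10 of 5xFAD among them, and wild type replicate 3 was the exception. Across libraries the ranges of both genes overlapped within wild type, circRNA and PKR knockout.

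Oas2 had a different pattern over the groups. Its level was 0.975, 0.905 and 0.730 FPKM in wild type, 1.17 and 0.827 FPKM in 5xFAD with EGFP, and 1.12, 1.08, 0.967 and 1.16 FPKM with circRNA. These groups overlapped one another. The PKR knockout libraries, at 1.75, 2.37, 1.56 and 1.36 FPKM, all lay above every other library.

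Oas3 was the lowest member in 12 of 13 libraries. It was at 0.147, 0.107 and 0.0505 FPKM in wild type, 0.457 and 0.340 FPKM in 5xFAD with EGFP, and 0.504, 0.538, 0.635 and 0.630 FPKM with circRNA. The PKR knockout libraries had 0.576, 1.07, 0.540 and 0.710 FPKM. Wild type lay below all 5xFAD libraries, and the 2 treated groups lay above 5xFAD EGFP and overlapped each other. These low values rest on 18 to 531 recovered fragments for each library.

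Oasl1 lay between Oas2, which was above it in 13 of 13 libraries, and Oas3. It was at 0.560, 0.458 and 0.403 FPKM in wild type, 0.724 and 0.524 FPKM in 5xFAD with EGFP, and 0.462, 0.646, 0.925 and 0.892 FPKM with circRNA. The PKR knockout libraries had 0.777, 1.09, 0.766 and 0.969 FPKM. Only the PKR knockout libraries were all above the wild type and 5xFAD EGFP libraries. Exons of Oasl1 and the antisense gene Gm13822 share 38 bases, and the strand setting of the counting is not stated.

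**Figure D1:**
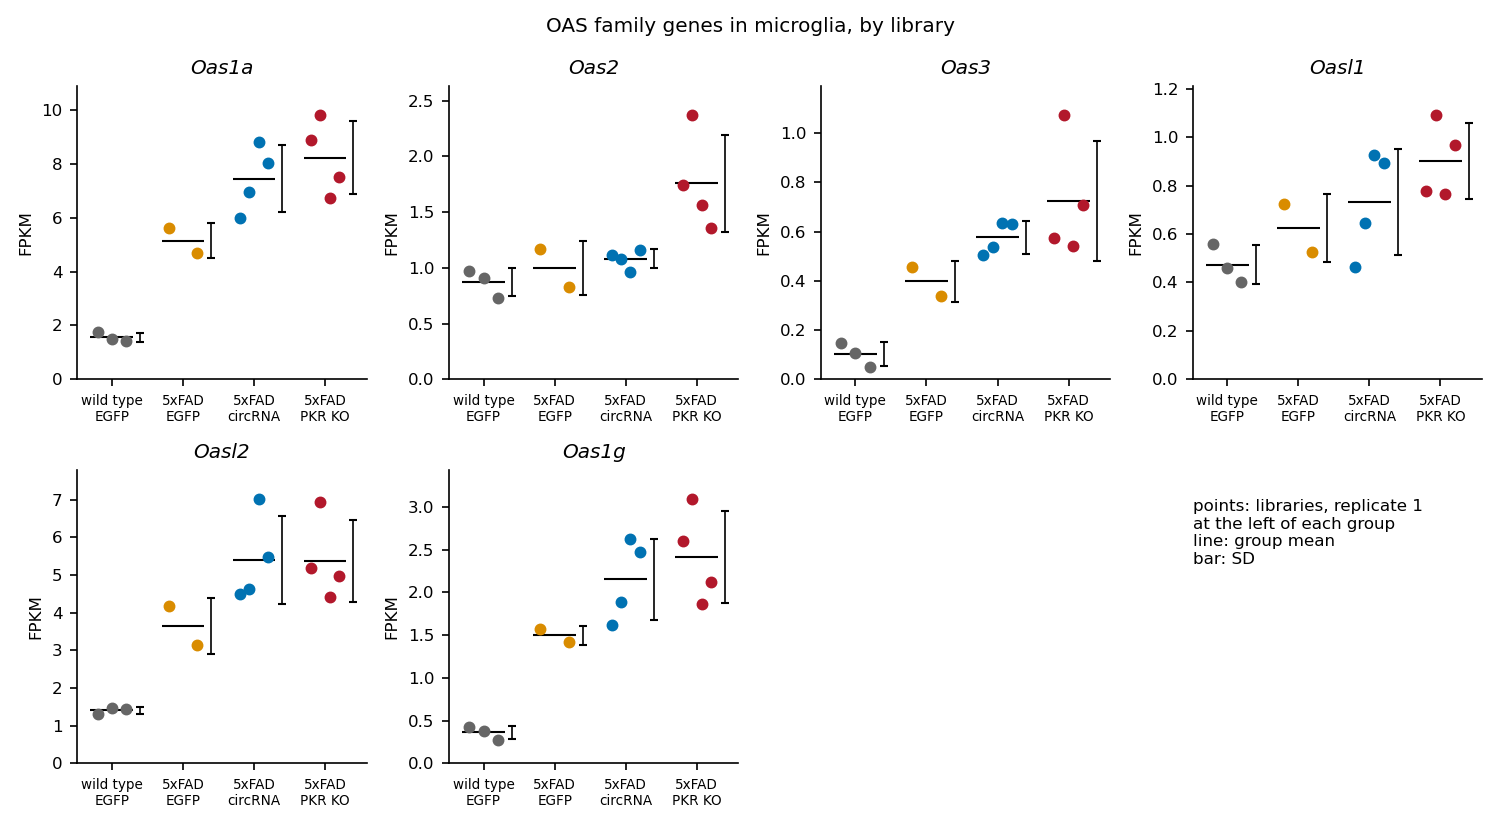
FPKM of the 5 OAS members and the paralog Oas1g (vertical axes, FPKM from 0, each panel on its own scale) in each library of the 4 groups; points are libraries, lines group means and bars SD. Oas1a, Oas3, Oasl2 and Oas1g are higher in all 10 5xFAD libraries than in wild type, and Oas2 stands apart only with PKR knockout.

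Of the summed FPKM of the 5 members, Oas1a made up 35.4% in wild type and 47.6% to 48.9% in the 5xFAD groups. The share of Oas2 was 19.7% in wild type, 9.21% in 5xFAD with EGFP, 7.10% with circRNA and 10.4% with PKR knockout.

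The first comparison asks how 5xFAD microglia differ from wild type when both received EGFP. Oas1a and Oasl2 rose, 2 of the 3 members tested, where 14.0% of all genes tested changed and 7.65% rose. Oas1a was 3.31 times its wild type FPKM, a log2 difference of 1.26 (SE 0.157, limma adjusted p = 0.000248). Oasl2 was 2.60 times its wild type FPKM, a log2 difference of 0.94 (SE 0.175, limma adjusted p = 0.00404). Leaving out 5xFAD EGFP replicate 1, in which all 5 members were higher than in replicate 2, gave Oasl2 an adjusted p of 0.0587. Oas2 differed by 0.09 (95% interval -0.20 to 0.38, limma adjusted p = 0.720) and did not change by this test.

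Among the low members, Oas3 had 3.94 times its wild type FPKM in 5xFAD with EGFP. Its log2(FPKM + 1) difference was 0.34 (SE 0.107) and did not pass, with a limma adjusted p of 0.0669 in the fit with no filter, where 4.75% of genes rose. It passed with a pseudocount of 0.1 (log2 difference 1.33, adjusted p = 0.0131), with the columns rescaled to 1 sum (adjusted p = 0.0447) and with voom on recovered fragments (2.04, adjusted p = 0.0250). Oasl1 differed by 0.14 (95% interval -0.13 to 0.41, adjusted p = 0.538). Groups did not overlap, with 5xFAD higher, for 3 of 5 members (Oas1a, Oas3 and Oasl2) and for 12.7% of the genes in the fit with no filter. With median-ratio scaling these were 4 members, Oasl1 added, and 17% of genes, and with the columns rescaled to the same sum the same 3 members and 7.97%.

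In 5xFAD with circRNA against wild type, Oas1a and Oasl2 rose (2 of 3 members tested, where 25.8% of all genes tested changed and 17.8% rose). Oas1a was 4.78 times wild type, a log2 difference of 1.71 (SE 0.131, limma adjusted p = 2.08e-06), and Oasl2 was 3.84 times wild type. The log2 difference of Oasl2 was 1.39 (SE 0.147, limma adjusted p = 2.84e-05). In the fit with no filter, where 11.2% of genes rose, Oas3 rose as well, to 5.69 times wild type FPKM (log2 difference 0.52, adjusted p = 0.00255). Oas2 (0.16, adjusted p = 0.344) and Oasl1 (0.22, adjusted p = 0.151) did not pass, and Oasl1 reached an adjusted p of 0.0493 without circRNA replicate 1, its lowest library of that group. Oas1a, Oas3 and Oasl2 lay above wild type without overlap, 3 of 5 members beside 13.9% of genes (6.56% with the same sum).

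In 5xFAD with PKR knockout against wild type, Oas1a and Oasl2 rose, and so did Oas2, which the filter kept for its level in this group, where 37.0% of all genes tested changed and 17.5% rose. Oas1a was 5.28 times wild type (log2 difference 1.84, SE 0.131, limma adjusted p = 8.62e-07) and Oasl2 was 3.82 times wild type (1.39, SE 0.147, limma adjusted p = 2.03e-05). Oas2 was 2.02 times wild type, with a log2 difference of 0.55 (SE 0.112, limma adjusted p = 0.00261, and 0.00464 in the fit with no filter). In the fit with no filter, in which 11.6% of genes rose, Oas3 rose to 7.15 times wild type FPKM (log2 difference 0.64, adjusted p = 0.000532). Oasl1 rose to 1.90 times (0.36, adjusted p = 0.0197), a call that ended without wild type replicate 3 (adjusted p = 0.0640), without PKR knockout replicate 2 (adjusted p = 0.0545), with sample weights (adjusted p = 0.0550) and with the replicate block (adjusted p = 0.0573). All 5 members lay above wild type without overlap, as did 13.5% of genes (18.2% with median-ratio scaling, 7.63% with the same sum).

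Other cell types differed between these groups as well. The summed FPKM of 6 border macrophage markers was 35.6 to 56.5 in wild type and 13.5 to 24.6 in 5xFAD libraries, that of 5 endothelial markers 58.2 to 129 against 24.7 to 72.3, and that of 4 mural cell markers 35.6 to 75.5 against 11.9 to 27.0. The dendritic cell sum was 15.1 to 20.9 in wild type and 26.6 to 49.3 in 5xFAD, and most of it was Bst2, itself an interferon-induced gene, at 13.4 to 19.9 and 26.0 to 48.5 FPKM, while Flt3, Xcr1 and Ccr9 did not exceed 0.230 FPKM in any library. The dendritic marker Zbtb46 went the other way, with 0.844 to 1.41 FPKM in wild type and 0.495 to 0.740 FPKM in the 5xFAD libraries. Markers of T and NK cells summed to at most 0.907 FPKM, much of it Cd4, which was at 0.415 to 0.801 FPKM in wild type and 0.209 to 0.493 FPKM in 5xFAD. Of the others, Nkg7 was at 0 to 0.0459 FPKM in wild type and 0.0614 to 0.351 in 5xFAD, and Cd3e at 0.00514 to 0.0146 and 0.0232 to 0.107 FPKM, both without overlap. Cd3g (0 to 0.0182 and 0.0053 to 0.0698 FPKM) and Cd8a (0 to 0.0654 and 0.0100 to 0.1025 FPKM) overlapped. All of these are low values. Astrocyte markers summed to 78.3 to 257.5 FPKM in wild type and 118.8 to 214.2 FPKM in 5xFAD. Among them Gfap was higher in 5xFAD without overlap (11.6 to 29.9 and 49.55 to 116.4 FPKM), and the rest overlapped. The part of these cells in the OAS differences was not tested, and in bulk samples fewer cells of a type and less RNA per cell cannot be told apart.

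The effect of circRNA within 5xFAD was compared with the EGFP vector. None of the 3 members tested was called by limma, beside 0% of all genes tested, and voom on recovered fragments likewise called 0 members. At an unadjusted p under 0.05 there were 2 of 3 members and 523 of 10817 genes. Oas1a was 1.45 times its level with EGFP (log2 difference 0.45, 95% interval 0.13 to 0.77, limma adjusted p = 0.739) and Oasl2 1.48 times (0.45, 95% interval 0.09 to 0.81, adjusted p = 0.739). Oas2 (0.07), Oasl1 (0.09) and Oas3 (0.17) had 95% intervals that held 0. Oas1a, Oas3 and Oasl2 did not overlap between the groups, with circRNA higher, as did 11.7% of genes (5.25% with median-ratio scaling and 4.42% with the same sum). The EGFP group has only 2 libraries. Neuronal markers summed to 49.9 to 62.4 FPKM in it and 18.3 to 49.7 FPKM with circRNA. Endothelial sums overlapped (24.7 to 37.7 and 36.5 to 72.3 FPKM). Of these markers Flt1 (6.67 to 7.85 and 8.625 to 12.2 FPKM) and Ly6c1 (5.22 to 10.2 and 10.85 to 17.9 FPKM) were higher with circRNA without overlap, and the rest overlapped. The part of these cells in the OAS differences was not tested.

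PKR knockout, for which no vector is named, was set against the EGFP vector in 5xFAD, so knockout and vector cannot be told apart. None of the 3 members tested was called (limma), beside 0.0832% of all genes tested, and 0 were called with voom. All 3 had an unadjusted p under 0.05, as did 1404 of 10817 genes. Oas2 was 1.76 times its EGFP level (log2 difference 0.46, 95% interval 0.18 to 0.74, adjusted p = 0.205), Oas1a 1.60 times (0.58, 95% interval 0.25 to 0.90, adjusted p = 0.181) and Oasl2 1.47 times (0.45, 95% interval 0.09 to 0.81, adjusted p = 0.283). In the fit with no filter, Oas3 was 1.82 times its EGFP level (0.29, 95% interval 0.07 to 0.52, limma adjusted p = 0.3425). Oasl1 was 1.44 times (0.23, 95% interval -0.03 to 0.48, limma adjusted p = 0.527). All 5 members lay above EGFP without overlap, where 12.0% of genes did (16.4% with median-ratio scaling, 8.46% with the same sum). Oligodendrocyte markers summed to 597 to 641 FPKM with EGFP and 213 to 359 FPKM with the knockout, and neuronal markers to 49.9 to 62.4 and 24.5 to 40.1 FPKM. Endothelial sums overlapped (24.7 to 37.7 and 36.7 to 56.9 FPKM). Of these markers Flt1 (6.67 to 7.85 and 11.4 to 13.8 FPKM) and Cdh5 (2.25 to 3.37 and 3.61 to 4.82 FPKM) were higher with the knockout without overlap, and the rest overlapped. The part of these cells in the OAS differences was not tested. Oas1a passed when these groups were fitted alone (adjusted p = 0.0493), and with sample weights Oas1a (0.0265) and Oas2 (0.0280) passed.

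Both treatments were then set against each other. Oas2, which reached the filter through the knockout libraries, was the member that differed, where 6.19% of all genes tested changed and 1.91% were lower with circRNA. It was lower with circRNA than with PKR knockout, at 0.616 times the FPKM (log2 difference -0.39, SE 0.104, limma adjusted p = 0.0458), and the 2 groups did not overlap, as held with circRNA lower for 3.13% of genes (8.33% with median-ratio scaling and 5.01% with the same sum). This call is close to the threshold. It was lost in 11 of 16 alternatives, among them no filter on mean FPKM (adjusted p = 0.0738), these groups fitted alone (0.0504) and each of 7 single left-out libraries, all of circRNA and PKR knockout replicates 1 to 3 (0.0674 to 0.109). Oas1a (-0.13, 95% interval -0.39 to 0.14) and Oas3 (-0.12, 95% interval -0.30 to 0.06) did not pass. Oasl1 (-0.14, 95% interval -0.35 to 0.07) and Oasl2 (0.00, 95% interval -0.29 to 0.30) did not pass either. The knockout libraries were also the deeper ones, and oligodendrocyte markers summed to 213 to 359 FPKM in them and 281 to 748 FPKM with circRNA, whose part in the Oas2 difference was not tested.

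**Figure D2:**
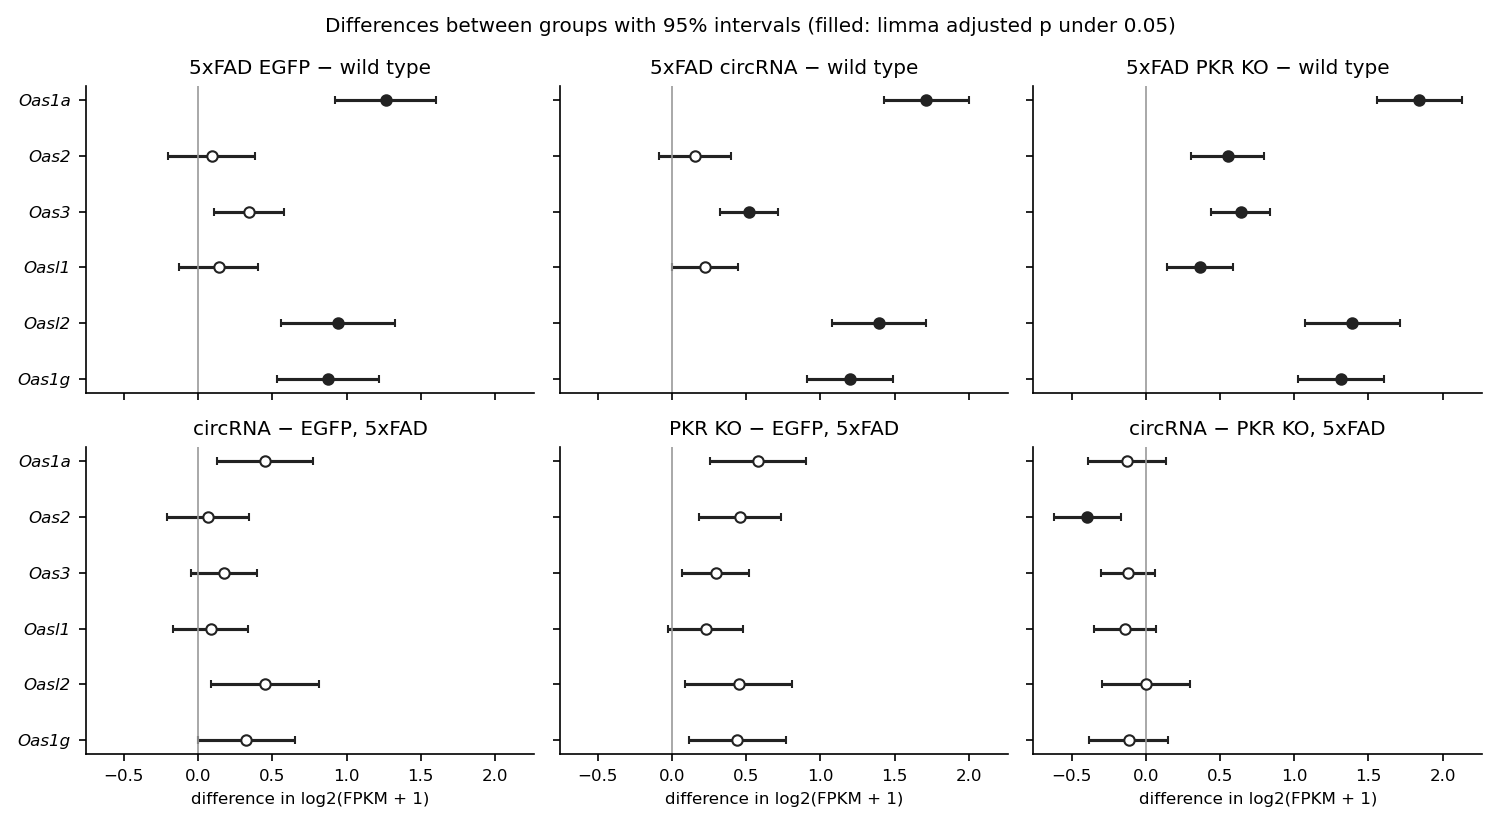
Differences in log2(FPKM + 1) between groups (horizontal axis, first minus second, with 95% intervals) for the 5 members and Oas1g in the 6 comparisons; filled points had a limma adjusted p under 0.05. On this scale, which shrinks low genes such as Oas3, Oas1a lies at 1.26 to 1.84 and Oasl2 at 0.94 to 1.39 in the 3 comparisons with wild type, and Oas2 is the only filled point among the 5xFAD groups.

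The other OAS1 paralogs and enzymes of the pathway were followed as 10 genes, of which 4 had a mean of at least 1 FPKM. Oas1g, an active OAS1 paralog, rose in all 3 comparisons with wild type. It was at 0.275 to 0.430 FPKM in wild type, 1.42 and 1.57 FPKM in 5xFAD with EGFP, 1.62 to 2.62 FPKM under circRNA and 1.87 to 3.09 FPKM in the knockout. The log2 differences from wild type were 0.88 (limma adjusted p = 0.00344), 1.20 (4.00e-05) and 1.32 (1.47e-05). In FPKM these were 4.15, 5.97 and 6.70 times wild type, above the ratios of Oas1a. Of the 100-base stretches of Oas1a transcripts, 730 of 1786 (40.9%) also occur in Oas1g, so the division of fragments between these genes is uncertain, and how multiply aligned fragments were counted is not stated. The FPKM ratio of Oas1a to Oas1g was 3.18 to 5.21 over the libraries. No other OAS gene shared such a stretch.

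Oas1c had group means of 0.494 to 0.659 FPKM and was called in none of the 6 comparisons by limma in the fit with no filter, for example with a log2 difference of 0.15 and an adjusted p of 0.274 between circRNA and wild type. Oas1d and Oas1e had 1 and 4 recovered fragments over all libraries, Oas1f was listed at 0 in each, and Oas1b and Oas1h are not analysed here. Abce1, a ribosome recycling factor, was higher with circRNA (5.50 to 6.77 FPKM) than with PKR knockout (4.67 to 5.04 FPKM), with a log2 difference of 0.33 (SE 0.0803, limma adjusted p = 0.0350). This call was lost in 10 of 16 alternatives, with adjusted p up to 0.0950. Pde12, a phosphodiesterase that degrades 2-5A, and Akap7 passed in none of the 6 comparisons by limma on the values as deposited. With voom Pde12 (log2 difference -0.34, adjusted p = 0.00854) and Abce1 (-0.22, adjusted p = 0.0313) were lower with PKR knockout than in wild type. These were 2 of the 5 listed genes that voom tested, where it called 37.1% of all genes lower. Limma on columns rescaled to 1 sum called the same there, beside 50.1% of all genes lower, and Pde12 lower with circRNA too, beside 43.3%.

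Genes within 100 kb of the loci give the local context. Of 7 neighbours with a mean of at least 1 FPKM, limma called 4, and each in the comparison of PKR knockout with wild type alone, where 37.0% of all genes changed. There Ankrd13a (0.25) and 2210016L21Rik (0.35) beside the Oasl genes were higher, and Sppl3 (-0.32) and Dtx1 (-0.74) were lower. Cfap73, on the same side of Oas2 as Dtx1 and farther away, did not reach that mean. In the fit with no filter it was lower than in wild type with circRNA (0.389 against 1.60 FPKM, limma adjusted p = 0.0456) and with PKR knockout (0.0437 FPKM, adjusted p = 0.00505).

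Genes from the type I interferon receptor to ISGF3 were followed as a list of 12, of which 11 were tested. In 5xFAD with EGFP against wild type limma called 3 higher and none lower, beside the 7.65% of all genes that rose, the list's median log2 difference being 0.32 beside -0.03 for all genes. These were Stat2 (0.48), a subunit of ISGF3, Irf8 (0.56), a macrophage transcription factor, and Usp18 (0.74), which removes ISG15 and restrains the interferon receptor. The 3 calls rest on the 2 EGFP libraries of 5xFAD, and 0 remained without replicate 1 and 1 without replicate 2. With circRNA and with PKR knockout limma called 7 of 11 higher than in wild type in each comparison, where 17.8% and 17.5% of all genes rose, and none lower. The 7 were Ifnar2, Stat2, Irf9, Irf7, Irf1, Irf8 and Usp18 in both, and the comparisons share the wild type libraries. Without wild type replicate 3 there were 6 in each, as Irf1 was lost with circRNA and Irf9 with PKR knockout. With circRNA there were 5 with the same sum, with the groups alone and with sample weights, Irf1 being lost in 5 of 15 alternatives (adjusted p up to 0.225), Ifnar2 in 2 and Irf7 in 1. Voom, which tested all 12, called Ifnar1, a subunit of the receptor, lower in all 3 comparisons (log2 differences -0.31, -0.24 and -0.22, adjusted p = 0.0203, 0.0153 and 0.0150) and Irf3 lower with circRNA (-0.31, adjusted p = 0.0418). Those fits called 9.15%, 20.6% and 37.1% of all genes lower. Rescaling the columns to 1 sum called 2, 3 and 2 of the 11 lower, where it called 27.7%, 43.3% and 50.1% of all genes lower. Irf7, which drives interferon genes, had 3.23 FPKM with circRNA and 3.37 FPKM with PKR knockout against 1.49 in wild type. None of the 11 passed in either treated group against 5xFAD with EGFP by limma, with 1 and 4 at an unadjusted p under 0.05, beside 523 and 1404 of 10817 genes. For PKR knockout against EGFP, Irf1 passed with median-ratio scaling, and Irf1 and Irf8 with these groups alone and with sample weights. Irf1 was lower with circRNA than with PKR knockout (13.3 against 18.0 FPKM, log2 difference -0.42, limma adjusted p = 0.0491), a call lost in 9 of 16 alternatives, with adjusted p up to 0.140.

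Other binders of double-stranded RNA were followed as 10 genes, 9 of them tested. Zbp1, a sensor of Z-form nucleic acid, was the 1 that limma called in 5xFAD with EGFP against wild type, and it rose (log2 difference 0.99, limma adjusted p = 0.00176), 1 of 9 beside 7.65% of all genes. Voom called 2 higher there and median-ratio scaling 5, beside 6.01% and 10.2% of all genes in those fits. Tlr3 was called lower there with sample weights, without wild type replicate 3 and with the columns rescaled to 1 sum, the last of which also called Prkra lower. Of all genes, 10.5%, 9.51% and 27.7% were called lower in those fits. With circRNA limma called 5 of 9 higher than in wild type, beside 17.8% of all genes, and none lower, namely Zbp1, Dhx58, Eif2ak2, Adar and Ifih1. Voom, sample weights, the same sum and leaving out wild type replicate 3 each also called Tlr3 and Prkra lower there, and the same 4 settings called Prkra lower with PKR knockout. In that order, these settings called 20.6%, 10.8%, 43.3% and 8.81% of all genes lower with circRNA. With PKR knockout they called 37.1%, 19.9%, 50.1% and 19.7% lower. With PKR knockout Zbp1, Dhx58, Adar and Ifih1 rose, 4 of 9 beside 17.5% of all genes, and Eif2ak2 and Tlr3 fell, 2 of 9 beside 19.4%. The Eif2ak2 call (log2 difference -0.27, limma adjusted p = 0.0486) was near the threshold, its groups overlapped, and it was lost in 8 of 15 alternatives. Between circRNA and PKR knockout, Eif2ak2, the gene of the kinase named as knocked out, was higher with circRNA by 0.845 (limma adjusted p = 0.00147), and the cause was not tested. Of the other 8 genes, Tlr3 was the 1 called higher with circRNA, where 4.28% of all genes were higher, and its difference was 0.45 (limma adjusted p = 0.0240) and was lost in 7 of 16. Against 5xFAD with EGFP, limma called neither Eif2ak2 nor Tlr3 with PKR knockout, but called both lower with these groups alone and with sample weights, beside 3.37% and 3.23% of all genes. Ifih1 encodes the sensor MDA5, with a log2 difference of 0.49 with circRNA and 0.37 with the knockout, and Adar, which edits double-stranded RNA, had 0.53 and 0.62. Ddx58, which encodes RIG-I, passed in none of the 6 comparisons by limma or voom.

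**Figure D3:**
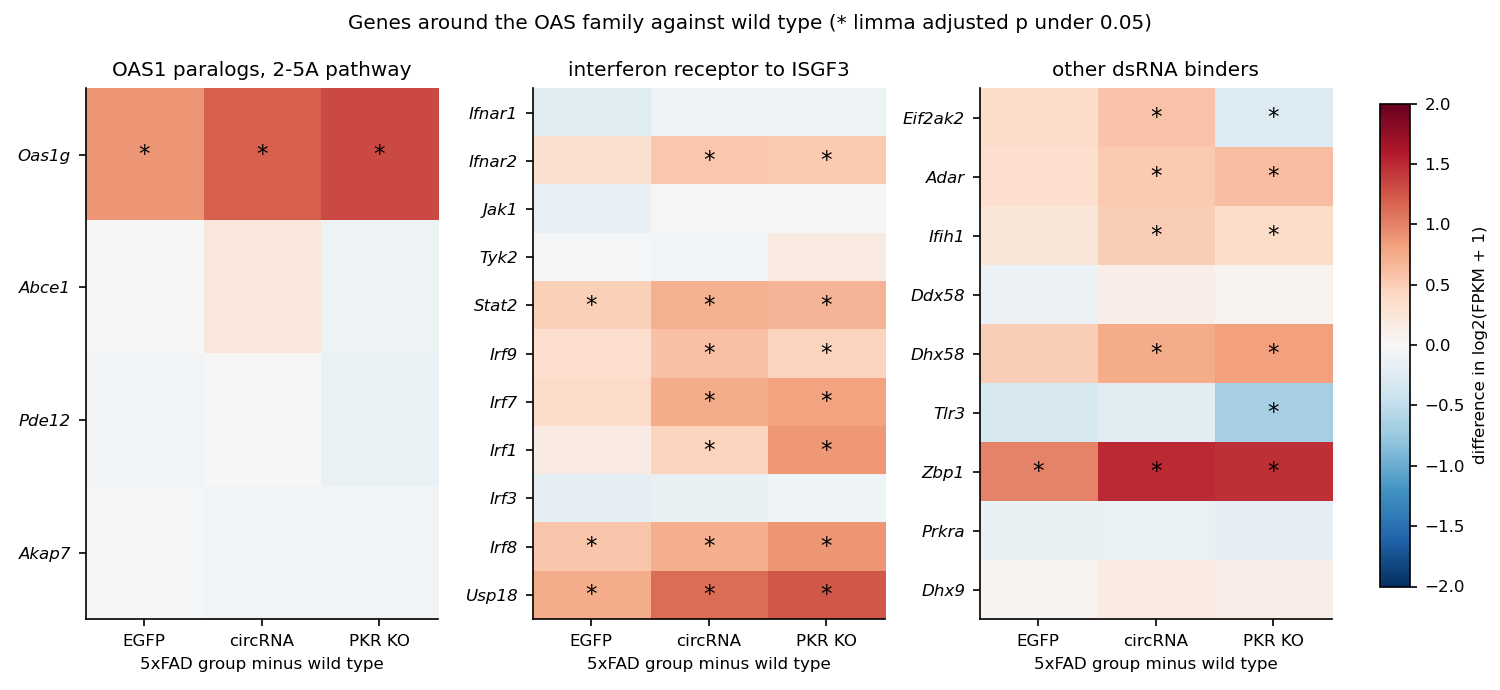
Differences in log2(FPKM + 1) of each 5xFAD group from wild type (colour scale, red higher and blue lower) for the tested genes of the 3 lists; asterisks mark a limma adjusted p under 0.05. Oas1g, Stat2, Irf8, Usp18 and Zbp1 are higher and marked in all 3 columns.

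Interferon ligands were near or at the limit of detection. Ifnb1 was above 0 in 9 of 13 libraries, at most 0.155 FPKM, and was listed at 0 in the wild type libraries. Ifng was above 0 in 8 libraries, at most 0.129 FPKM, and was likewise listed at 0 in wild type. Ifna4 was above 0 in 1 library. Ifna1, Ifna2 and Ifnl3 were listed at 0 in each library.

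The members also varied together among libraries of the same group. In 5xFAD with EGFP all 5 were higher in replicate 1, and with PKR knockout all 5 were highest in replicate 2, as deposited and under both other scalings. With circRNA replicate 1 was lowest for 4 of 5 members, and in wild type replicate 3 was lowest for 4 of 5. Across the 13 libraries the correlation of log2(FPKM + 1) was 0.98 between Oas1a and Oasl2 and 0.62 to 0.98 over all 10 pairs of members. For deviations from the group means the pairs had 0.34 (Oas2 and Oasl1) to 0.86 (Oas1a and Oasl2), with a median of 0.74. The points share libraries and hence depth, scaling and cell content, and the values are descriptions. Marker sums of wild type replicate 3 stood apart, as given above, and their part here was not tested.

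**Figure D4:**
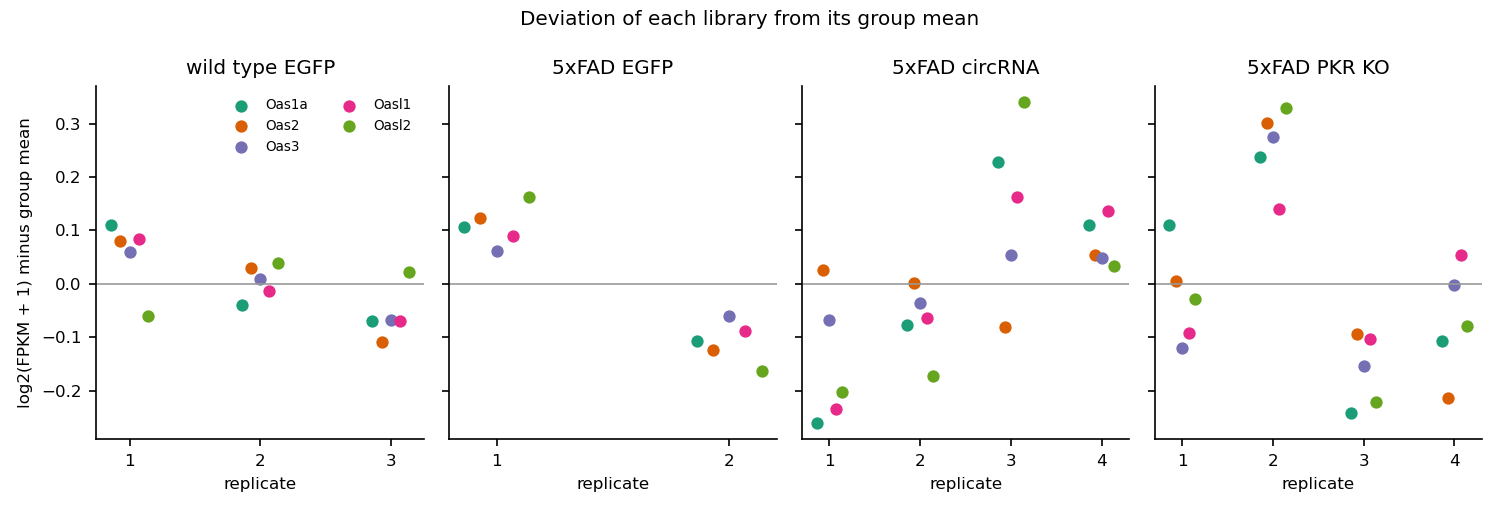
Deviation of log2(FPKM + 1) from its group mean (vertical axis) for each library (horizontal axis, replicate number) of the 4 groups; points are the 5 members. All 5 members lie above 0 in PKR knockout replicate 2 and 5xFAD EGFP replicate 1.

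The genes most like the 5 members were sought by the correlation over 13 libraries with the mean of their standardised log2(FPKM + 1) values. These were Usp18 (r = 0.97), Oas1g (0.96), Larp1 (0.96), Lmnb1 (0.96) and Osbpl3 (0.96), whereas the median over 10814 genes was -0.04. For deviations from the group means the values were 0.87, 0.89, 0.76, 0.73 and 0.74, beside a median of 0.17. Eif2ak2, which encodes the kinase that the labels name as knocked out in 1 group, had -0.03 and 0.70. Usp18 had 1.11 to 1.21 FPKM in wild type, 2.11 and 3.20 FPKM in 5xFAD with EGFP, 2.76 to 4.32 FPKM with circRNA and 3.50 to 4.96 FPKM with PKR knockout.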

How the data were processed

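Microglial RNA of 13 libraries was extracted with TRIzol, depleted of ribosomal RNA and sequenced as TruSeq stranded total RNA on a NovaSeq, per the labels' protocols. The submitters' processing notes name Bowtie2 2.3.5, HISAT2 2.1.0, featureCounts 1.5.1 and build mm10; annotation, strand setting and multiple alignments are not given in the sources used here. The authors deposited FPKM values of 19737 genes, 1 column per library. FPKM divides by a library's total, so changes in abundant genes can move the others.

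Libraries were grouped by their labels. FPKM was tested with limma 3.58.1 (R 4.3.3), eBayes with trend, on log2(FPKM + 1) in 10817 genes whose mean reached 1 FPKM, with 1 mean per group and 9 residual degrees of freedom, two-sided, Benjamini-Hochberg adjusted within each of 6 comparisons. Tables were handled in Python 3.11.15 with pandas 2.3.3 and numpy 2.4.6. Both the fit and the recovery of depth were tested on simulated data. Of 47116 FPKM values under 0.3, 90.6% were whole fragments within 0.02. Alternatives were a pseudocount of 0.1, no filter (18291 genes), 2 other scalings, the compared groups alone, a replicate block, sample weights, each library left out, and, chosen after seeing the data, voom on recovered fragments (14668 genes with a mean of at least 10 fragments). The numbers shared by libraries of different groups were not shown to pair them. Named genes were the 5 members, the listed pathway genes (some are not reported here) and the 5 genes most correlated with the members; neighbours within 100 kb were chosen after the data were seen. The members and lists were chosen with earlier results of these data known.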

Additional observations from a re-analysis of the deposited data

How the results depend on the processing

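Against wild type, Oas1a rose in all 3 comparisons under each alternative run (adjusted p at most 0.00759), and Oasl2 did with the exception given for 5xFAD EGFP. The number of members called moved as follows. Against wild type it was 3 in place of 2 with voom for 5xFAD EGFP, and with voom or no filter for circRNA, because Oas3 was then tested and passed. It was 1 against a main 2 in 5xFAD EGFP against wild type without 5xFAD EGFP replicate 1. For PKR knockout against EGFP it was 1 with these groups alone and 2 with sample weights, against 0. For PKR knockout against wild type it was 5 with no filter and 5 with voom on recovered fragments, against 3, because Oas3 and Oasl1 were then tested. For circRNA against PKR knockout it was 0 in place of 1 with no filter, with these groups alone, with voom and with each of 7 libraries left out.

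The replicate block left the members called against wild type at 2 (5xFAD EGFP), 2 (circRNA) and 3 (PKR knockout) and those against 5xFAD EGFP at 0, and took the 1 call of circRNA against PKR knockout to 0 (Oas2 adjusted p = 0.0543). It also ended the Oasl1 call of PKR knockout against wild type (0.0573) and raised all genes called with PKR knockout against EGFP from 9 to 22. Correlations of same-numbered libraries averaged 0.188 over the 4 pairs of circRNA and PKR knockout, with a lowest of 0.0363. Those of other numbers averaged -0.0613, with a highest of 0.291. In every pair of groups the average was higher for same numbers, from 0.0223 against -0.0204 (wild type and circRNA) to 0.328 against -0.109 (5xFAD EGFP and PKR knockout). The labels do not say that shared numbers pair animals.

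Counts over all genes depended on scaling. Rescaling to 1 sum moved the median of all genes by -0.17, -0.20 and -0.24 (log2) in the comparisons of EGFP, circRNA and PKR knockout with wild type. There the calls were 708 higher and 3001 lower (3709 in all, against 827 and 687), 995 and 4681 (5676, against 1925 and 871), and 1174 and 5421 (6595, against 1898 and 2099). With circRNA against PKR knockout the main 463 higher and 207 lower became 148 and 697 by median ratio and 339 and 344 by the same sum. With PKR knockout against wild type median-ratio scaling gave 2757 higher and 1447 lower. Groups fitted alone gave 509 genes for 5xFAD EGFP and 1725 for circRNA against wild type. Leaving out a library gave 566 to 1998 for 5xFAD EGFP against wild type and 147 to 506 for circRNA against PKR knockout. With voom there were 4487 for circRNA and 7185 for PKR knockout against wild type, and with sample weights 3161 for circRNA against PKR knockout. The 9 genes of PKR knockout against EGFP became 0 with a pseudocount of 0.1, with no filter, with the same sum and with voom, 46 with median ratio, 577 with the groups alone, 822 with sample weights, and 0 to 2 with a library left out. The cause was not tested.

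Signs turned only for differences that did not pass. With 1 library left out, Oas2 was -0.0316 to 0.2152 in 5xFAD EGFP against wild type and -0.0583 to 0.1885 in circRNA against EGFP, and Oasl1 was -0.0028 to 0.1752 there. Oas1c in PKR knockout against EGFP was -0.0291 with voom and -0.0191 to 0.1103 without a library. In circRNA against PKR knockout Oasl2 was -0.1072 with median ratio, -0.0464 with the same sum, -0.1369 with sample weights, -0.0318 with voom and -0.1108 to 0.1123 without a library. There Oas1c was -0.0121 with median ratio, -0.0081 with sample weights and -0.0417 to 0.0877 without a library. Wild type Oas3 rests on 18 to 49 fragments a library, which limits its fold.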
